A study of Mus musculus with 12 samples.

Results

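The membrane-bound adenylyl cyclases were followed as *Adcy1* to *Adcy9*, the 9 genes of the family among the 55418 genes of a brainstem count table. Members were chosen by symbol, with earlier results of these data known. All 9 were listed, and each had enough counts to be tested in every comparison. RNA came from the medulla and pons of 12 outbred CFW mice at P15, with 1 library per mouse. Saline controls received injections of physiological saline, and the other mice received 15 mg/kg morphine (weighed as the sulfate pentahydrate) under the skin, 2 times daily from P1 to P14. Each treatment had 3 females and 3 males, and tissue was taken 16 h after the last injection, during spontaneous withdrawal. Litters held pups of both treatments, but no sample label gives the dam, so related mice could not be told apart from unrelated ones. The comparison asks whether repeated neonatal morphine, followed by withdrawal, goes with other levels of the enzymes that make cAMP.

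Adenylyl cyclases convert ATP to cyclic AMP (cAMP), and every membrane-bound form is switched on by the stimulatory G protein Gs. Opioid receptors couple to inhibitory G proteins, which lower the activity of several cyclases at once, and cyclase activity can rebound above its starting point when a long opioid exposure ends. This rebound, often called cAMP superactivation, has been studied in noradrenergic cells of the brainstem. The forms differ in what else regulates them. *Adcy1*, *Adcy3*, and *Adcy8* are stimulated by Ca2+ and calmodulin, *Adcy2*, *Adcy4*, and *Adcy7* are stimulated by G protein βγ subunits once Gs is active, *Adcy5* and *Adcy6* are inhibited by Ca2+, and *Adcy9* responds little to the plant compound forskolin. Messenger RNA is measured here, not enzyme activity.

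The libraries held 27850565 to 48097947 counts on genes. The first principal component of log2 levels over 18608 genes carried 40.5% of the variance, and it set saline males 1 and 2 (-57.1 and -62.4) at the opposite end from saline male 3 (56.0), so both ends of it lay within 1 group. The library labelled morphine male 6 had *Xist* at 379.9 CPM and the Y-linked *Ddx3y* at 12.8 CPM, where the other 5 males had at most 2.71 CPM of *Xist* and at least 117.8 CPM of *Ddx3y*. It stayed in its labelled group, and values without it are given where sex enters. The labels and the study give brainstem, but the extraction label names spinal cords. Summed levels of 6 thoracic to sacral *Hox* genes were at most 0.154 CPM in any library, and those of 6 hindbrain *Hox* genes were 27.7 to 42.2 CPM. Markers of cerebellar granule cells summed to 103 to 197 CPM and were highest in morphine male 5. They summed to 103 to 148 CPM in saline males and to 126 to 197 CPM in morphine males. *Fat2* (19.2 to 24.7 against 11.5 to 13.8 CPM), *Gabra6*, and *Cbln3* were higher in every morphine male than in every saline male. Of all genes, 9.08% did not overlap between these males. The gap for *Cbln3* was narrow, from 6.464 CPM in saline male 3 to 6.525 CPM in morphine male 6. *Neurod1*, *Zic1*, and *Zic2* overlapped between these 2 groups. Markers of choroid plexus summed to 10.1 CPM in the lowest and 831 CPM in the highest library, again morphine male 5, with 29.1 to 162 CPM in morphine females and 413 to 831 CPM in morphine males. Their part in the results was not tested. In bulk tissue, fewer cells of a type and less RNA per cell cannot be told apart.

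Promoter sequence could be matched for 7 of the 9 genes in RefSeq on GRCm38.p6, but not for *Adcy6* and *Adcy8*. Each window held 250 bases before and 50 bases after a start site, and the row nearest to the gene start of GENCODE M21 was taken. The windows of the 7 genes had 54.7% to 79.0% GC, against a median of 52.7% over 32851 windows of all genes. The cAMP response element, to which CREB family factors bind, has the letters TGACGTCA, and its half-site has TGACG on either strand. The full element was in 0 of the 7 windows and in 1.79% of all windows. The half-site, which is contained in the full element, was in 2 of the 7 (*Adcy7* and *Adcy9*) and in 20.8% of all windows. The window can lie inside the gene, and the GENCODE start relative to the RefSeq start was at -10589 bases for *Adcy7* and at -294 bases for *Adcy3*. The 250 bases before the start are shown for *Adcy5* and *Adcy9*, whose levels followed the main axis of the libraries, and for *Adcy1* and *Adcy2*, whose levels followed it little. They were picked after their values were seen, and capitals mark the half-site.
Adcy5 promoter, chr16:35154614-35154863 (plus strand): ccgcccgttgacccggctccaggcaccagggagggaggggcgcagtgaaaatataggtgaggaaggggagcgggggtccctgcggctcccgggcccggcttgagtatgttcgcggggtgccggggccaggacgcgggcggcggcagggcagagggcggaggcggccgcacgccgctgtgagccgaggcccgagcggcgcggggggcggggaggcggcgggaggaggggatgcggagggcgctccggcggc
Adcy9 promoter, chr16:4420499-4420748 (minus strand): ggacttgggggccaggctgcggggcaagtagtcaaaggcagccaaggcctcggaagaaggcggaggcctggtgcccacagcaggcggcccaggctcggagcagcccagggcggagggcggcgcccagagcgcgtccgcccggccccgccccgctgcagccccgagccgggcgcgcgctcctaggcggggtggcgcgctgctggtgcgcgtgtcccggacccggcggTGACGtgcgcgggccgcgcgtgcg
Adcy1 promoter, chr11:7063183-7063432 (plus strand): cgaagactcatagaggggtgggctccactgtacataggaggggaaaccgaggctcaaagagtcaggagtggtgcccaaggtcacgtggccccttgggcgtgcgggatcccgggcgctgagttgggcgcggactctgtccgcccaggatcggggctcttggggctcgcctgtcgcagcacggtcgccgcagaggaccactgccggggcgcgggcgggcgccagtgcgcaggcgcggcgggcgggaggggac
Adcy2 promoter, chr13:68999542-68999791 (minus strand): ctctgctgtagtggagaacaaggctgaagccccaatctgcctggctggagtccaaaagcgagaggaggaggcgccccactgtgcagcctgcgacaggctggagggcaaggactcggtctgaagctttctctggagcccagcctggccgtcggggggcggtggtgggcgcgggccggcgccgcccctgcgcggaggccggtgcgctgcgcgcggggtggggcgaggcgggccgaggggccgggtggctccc
The *Adcy5* and *Adcy9* stretches had 78.0% and 78.8% GC, and those of *Adcy1* and *Adcy2* had 71.2% and 73.2%. Of the other windows, those of *Adcy3* and *Adcy4*, which also followed the axis, had 68.7% and 58% GC, and that of *Adcy7*, which did not, had 54.7%, so promoter GC did not separate the genes in this way. The 1 half-site lay at position -24 from the *Adcy9* start. A match describes letters and is not evidence of binding.

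Per kb of exon, brainstem expression of the family was led by *Adcy2*, *Adcy1*, and *Adcy5*. Levels that are compared between genes are CPM per kb of exon, averaged over the 12 mice. *Adcy2*, the cyclase stimulated by βγ subunits that lies on chromosome 13 (68620043 to 68999541), stood at 19.4 ± 1.35 CPM per kb (SD, n = 12). *Adcy1*, a Ca2+/calmodulin-stimulated cyclase of neurons (chromosome 11, 7063489 to 7178506), stood at 14.4 ± 1.97 (SD, n = 12), and *Adcy5*, a Ca2+-inhibited cyclase best known from striatum and heart (chromosome 16, 35154877 to 35305738), at 10.2 ± 3.33 (SD, n = 12). The SD of *Adcy5* was thus the largest of the 3. These levels were followed by *Adcy8* (6.07 ± 0.372) and *Adcy9* (6.05 ± 1.15), then by *Adcy6* (4.81 ± 1.03), *Adcy3* (4.18 ± 1.06), and *Adcy7* (3.20 ± 0.264), all in CPM per kb. *Adcy4* (chromosome 14, 55769057 to 55784095) was lowest at 0.688 ± 0.163 CPM per kb, from 62 to 208 counts per library.

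**Figure D1:**
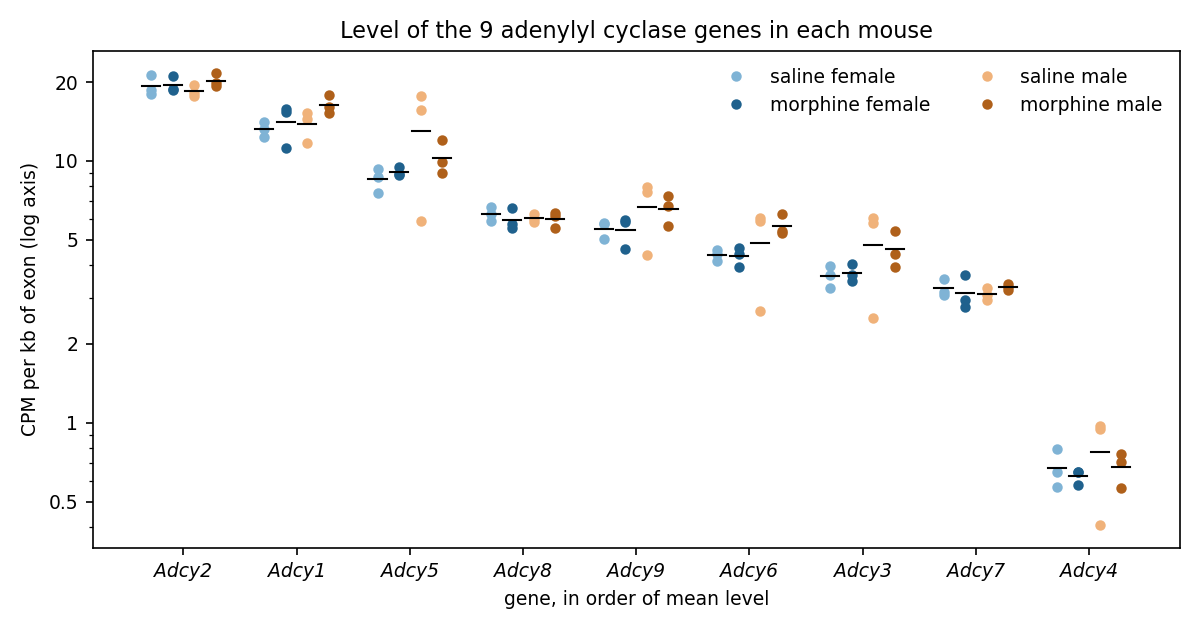
CPM per kb of exon (log axis) of the 9 adenylyl cyclase genes in each of 12 mice. Points are mice, coloured by group, and black bars are means of 3 mice. *Adcy4* lies apart from all other genes, and saline male 3 is the low point of *Adcy5*, *Adcy9*, *Adcy6*, *Adcy3*, and *Adcy4*. Saline male 3 is also lowest for *Adcy2*, at 17.7 CPM per kb, close to saline female 6 at 17.9.

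The order of neighbouring genes was tested within mice by an exact sign-flip permutation test (two-sided, Benjamini-Hochberg over the 8 neighbouring pairs). The pairs and their order were taken from mean levels of the same 12 mice, so these p values are not independent support for the ranking. *Adcy2* exceeded *Adcy1* in 12 of 12 mice, by 0.44 ± 0.21 (SD) in log2 CPM per kb (adjusted exact p = 0.000977). In CPM the order was the opposite, with *Adcy1* at 140.6 to 223.8 and *Adcy2* at 74.7 to 90.9. The order per kb thus rests on annotated exon lengths of 12522 bases for *Adcy1* and 4211 bases for *Adcy2*. An error in a length would be the same in every mouse, so the permutation p does not measure it. *Adcy1* exceeded *Adcy5* by 0.54 ± 0.40 in 10 of 12 mice (adjusted exact p = 0.00313), and the exceptions were saline males 1 and 2. *Adcy8* and *Adcy9* could not be ordered, with a mean difference of 0.03 ± 0.28, *Adcy8* higher in 5 of 12 mice, and an adjusted exact p of 0.755. The other pairs had an adjusted exact p of at most 0.00893, but the ranges over mice were apart for 1 pair alone, *Adcy7* over *Adcy4*, with a difference of 2.25 ± 0.36 in log2 level.

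By class, the Ca2+/calmodulin-stimulated genes made up 35.8% ± 1.51 of the summed CPM per kb (SD, n = 12) and the βγ-stimulated genes 34.1% ± 3.39. The Ca2+-inhibited pair made up 21.5% ± 3.63, with 15.8% in the lowest mouse and 29.4% in the highest. *Adcy9* gave the remaining 8.71% ± 0.769. The summed level of the 9 genes was 68.1 ± 10.5 CPM per kb in saline mice and 69.9 ± 5.20 in morphine mice (SD, n = 6 each). The Ca2+/calmodulin class held 35.2% ± 1.57 of the sum in saline and 36.3% ± 1.35 in morphine mice (SD, n = 6 each), and no test was run on these shares.

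Counts of 3 members are less certain than the others. *Adcy3* (chromosome 12, 4133103 to 4213525), the cyclase of olfactory neurons and of neuronal primary cilia, shares 22.1% of its exon bases with *Cenpo* on the opposite strand. *Adcy6* (chromosome 15, 98589973 to 98610076) shares 8.92% with *Gm29331*, and *Adcy2* shares 4.49% with *Gm35161*, also on opposite strands. The strand setting of the counting is not given in the sources used here, so reads in those stretches cannot be assigned to one gene with certainty.

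The members varied to different degrees between mice. The biological coefficient of variation of *Adcy5*, from edgeR's tagwise dispersion, was 25.4%, larger than in 92.4% of the 2177 genes of similar level. For *Adcy8* it was 11.3% and for *Adcy2* 11.1%, with 7.89% and 12.9% of genes of similar level below. In CPM, *Adcy5* stood at 112, 127, and 42.2 in saline males 1, 2, and 3, at 67.1, 62.2, and 54.3 in saline females 4, 5, and 6, at 67.9, 63.5, and 64.3 in morphine females 1, 2, and 3, and at 71.0, 64.6, and 86.0 in morphine males 4, 5, and 6. Both the lowest and the highest mouse were therefore saline males.

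This spread followed the first principal component and the GC content of the transcripts. Over the 12 mice the correlation of log2 level with the component was -0.97 for *Adcy5*, -0.95 for *Adcy3*, -0.79 for *Adcy9*, -0.76 for *Adcy6*, and -0.74 for *Adcy4*. It was weaker for *Adcy8* (-0.35), *Adcy1* (-0.29), *Adcy2* (-0.27), and *Adcy7* (-0.05). Over all 18608 genes the median absolute correlation with the component was 0.65, so following it was common. The absolute correlation was smaller in 95.15% of genes for *Adcy5* and in 90.33% for *Adcy3*. For *Adcy4*, *Adcy6*, and *Adcy9* it was smaller in 59.4% to 66.1% of genes, and for the 4 others in 3.5% to 24.5%. The 5 genes with the stronger correlations had transcripts of 54.0% to 59.5% GC and the 4 others of 50.8% to 52.6%, against a median of 49.1% over the 18608 genes. The correlation of GC content with the correlation to the component was -0.87 over the 9 members and -0.75 over all 18608 genes. These correlations describe genes that share the same 12 libraries, and the members were themselves part of the component. Whether GC content set the levels of the members was not tested.

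**Figure D2:**
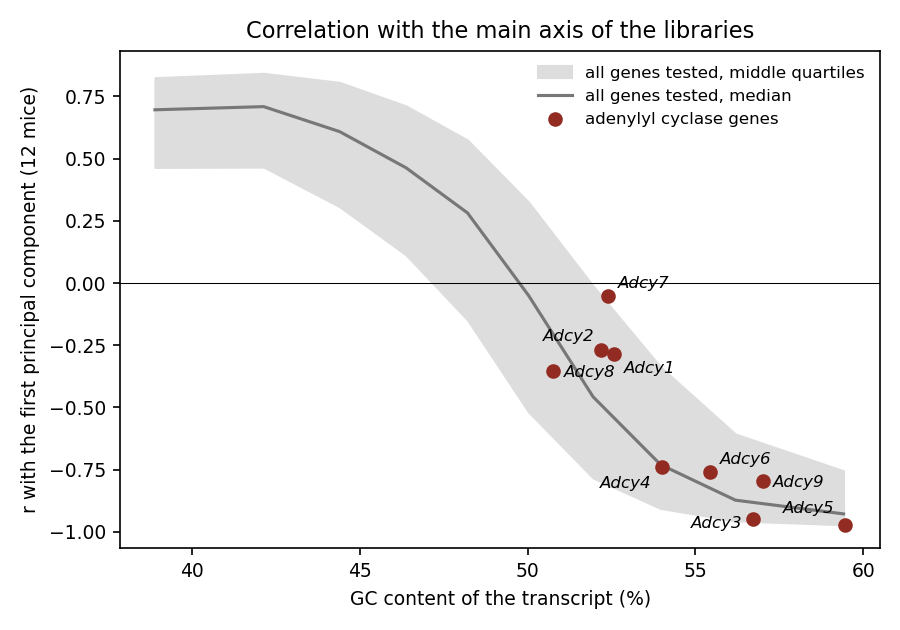
Pearson r of log2 level with the first principal component over 12 mice (y axis) against GC content of the longest transcript in percent (x axis). Red points are the 9 cyclase genes, and the grey line and band are the median and the middle quartiles of all genes tested, in 10 bins of GC content. *Adcy5*, at 59.5% GC, has the strongest correlation (-0.97) and *Adcy7*, at 52.4% GC, the weakest (-0.05).

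Levels of several members were correlated between mice. All 36 pairs of members were correlated over the 12 mice, and 11 had an adjusted permutation p under 0.05 for Pearson's r and 4 for Spearman's rho. Pairs of other genes were not examined, so no share over all genes stands beside these counts. Over 18608 genes the median absolute correlation with the first principal component was 0.65. Of the 11, 9 joined members that followed the principal component, and the other two were *Adcy1* with *Adcy9* (r 0.71) and *Adcy1* with *Adcy6* (r 0.71), which were 0.43 and 0.48 without the 2 farthest mice. *Adcy3* and *Adcy5* had the highest r, 0.96 (adjusted permutation p = 0.00036, the smallest that the resamples allow; rho 0.89, adjusted permutation p = 0.00558). It was 0.92 without the 2 mice farthest from the median of *Adcy3*, 0.99 within saline mice, and 0.91 within morphine mice. *Adcy6* and *Adcy9* followed with an r of 0.90 (adjusted permutation p = 0.00036; rho 0.87, adjusted permutation p = 0.00768), which was 0.91 without the 2 farthest mice, 0.95 in saline mice, and 0.87 in morphine mice. At the other end stood *Adcy1* with *Adcy8*, both stimulated by Ca2+ and calmodulin, with an r of -0.43 (adjusted permutation p = 0.38; rho -0.52, adjusted permutation p = 0.254). *Adcy7* with *Adcy8* had an r of -0.26 (adjusted permutation p = 0.627; rho -0.28, adjusted permutation p = 0.608). Without the 2 farthest mice these r values were -0.47 and -0.31, and with scaling by total counts over all 12 mice they were -0.05 and 0.04. The part of the first principal component in these correlations was not tested.

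**Figure D3:**
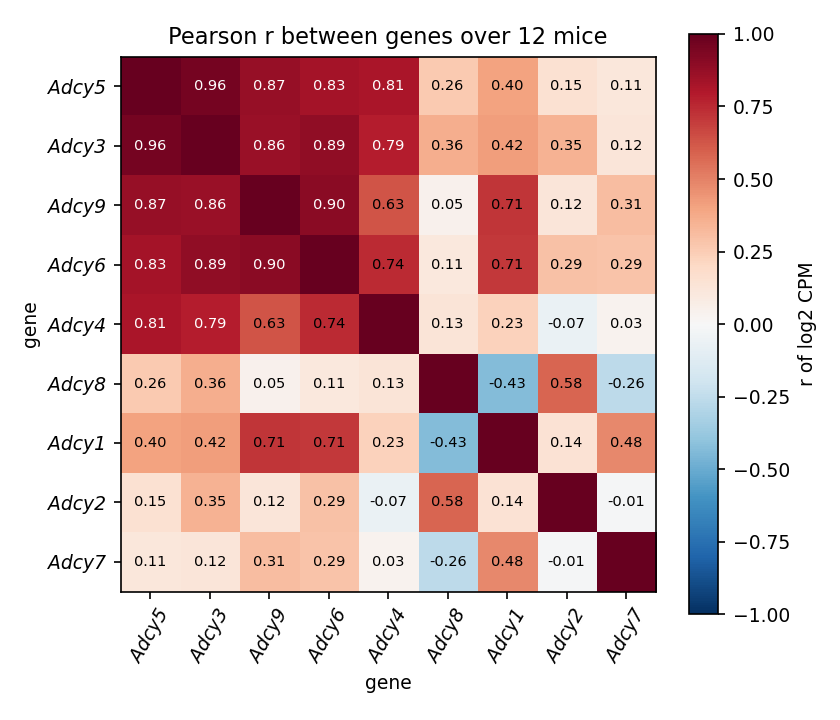
Pearson r of log2 CPM between each pair of the 9 cyclase genes over 12 mice, with red for positive and blue for negative values. The genes are ordered by their correlation with the first principal component, and the block of *Adcy5*, *Adcy3*, *Adcy9*, *Adcy6*, and *Adcy4* holds values from 0.63 to 0.96.

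Among all genes, those most like the 3 most abundant members were found by Pearson's r over the 12 mice, out of 18607 others. *Fasn*, which encodes fatty acid synthase, tracked *Adcy5* with an r of 0.998, followed by *Bcar1* (0.997) and *Sh2b1* (0.997). For *Adcy5*, 2697 genes reached an r of 0.9, so closeness to it was common. *Zfp618* (0.947), *Rreb1* (0.926), and *Smad3* (0.918) were nearest to *Adcy1*, and 4 genes in all reached 0.9. *Ftsj3* (0.922) and *Gm5124* (0.922) were nearest to *Adcy2*.

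None of the cyclase genes passed the thresholds of the study when morphine mice were compared with saline mice over both sexes. Those thresholds ask for an unadjusted p below 0.05 together with a log2 fold change beyond 0.26 in either direction, and 1.19% of all genes passed them. Of the 9 members, 4 were higher and 5 lower in morphine mice, and the median log2 fold change was -0.00, against -0.02 over all genes. On p alone 0 members passed, against 1.32% of all genes, and 0 passed both thresholds with edgeR's exactTest or the Wald test of DESeq2. The treatments overlapped in level for each of the 9, and 0.043% of all genes did not overlap. Fold changes are morphine over saline from edgeR's quasi-likelihood test with sex as a covariate.

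*Adcy1* had the smallest p of the family. It lay at 146 CPM in the lowest saline mouse, 171 at the median, and 191 in the highest, and at 141, 195, and 224 CPM in morphine mice. Of the 6 morphine mice, 5 stood above every saline mouse, and morphine female 3 stood below them all. Of those 5, morphine male 6 (191.4 CPM) and morphine female 2 (191.9 CPM) were nearly level with saline male 1 (191.0 CPM). The log2 fold change was 0.18 with a standard error (SE) of 0.10, an unadjusted p of 0.0895, and an adjusted p of 1.00. It lay between 0.11, without saline male 3, and 0.24, without morphine female 3, over fits that each left out 1 mouse. On the unadjusted p alone, edgeR's quasi-likelihood test put *Adcy1* below 0.05 in 3 alternative fits. Without morphine female 3 it had an unadjusted p of 0.014 and an adjusted p of 1.00. With offsets for GC content and length its log2 fold change was 0.14 (unadjusted p = 0.047, adjusted p = 1.00), and with 1 surrogate variable it was 0.19 (unadjusted p = 0.0462, adjusted p = 0.901). The last 2 of these fits were added after the data were seen, and in none of the 3 did the fold change reach 0.26.

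The other Ca2+/calmodulin-stimulated genes moved less. *Adcy8* lay at 47.6, 50.1, and 54.3 CPM (lowest, median, and highest) in saline mice and at 45.1, 48.5, and 53.7 CPM in morphine mice, and its fold change was -0.03 on the log2 scale (SE 0.07). *Adcy3* had medians of 23.9 CPM in saline and 24.9 CPM in morphine mice and a log2 fold change of -0.00 (SE 0.18). Its SE was more than that of *Adcy8*, and its saline mice ran from 15.7 to 37.7 CPM.

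Among the βγ-stimulated genes, *Adcy2* had medians of 77.6 CPM in saline and 82.5 CPM in morphine mice and a log2 fold change of 0.09 (SE 0.07). *Adcy7*, a cyclase abundant in immune cells, ran from 19.8 to 23.9 CPM in saline and from 18.6 to 24.7 CPM in morphine mice, with 0.03 (SE 0.09). *Adcy4*, known from endothelial cells, had medians of 3.37 and 3.04 CPM and a log2 fold change of -0.14 (SE 0.20), the lowest of the 9. A change of 0.26 was therefore larger than 2 SE for *Adcy1*, *Adcy2*, *Adcy7*, and *Adcy8*, and smaller for the other 5 members.

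Of the Ca2+-inhibited pair, *Adcy5* had medians of 64.7 CPM in saline and 66.2 CPM in morphine mice, while its means were 77.5 and 69.5 CPM. Its log2 fold change was -0.11 (SE 0.21). *Adcy6*, a widely expressed cyclase, had medians of 30.4 and 33.8 CPM and a log2 fold change of 0.12 (SE 0.16). *Adcy9* had medians of 30.0 and 30.6 CPM and a log2 fold change of -0.00 (SE 0.14). Each member other than *Adcy1* had an unadjusted p of at least 0.266 in edgeR's test.

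**Figure D4:**
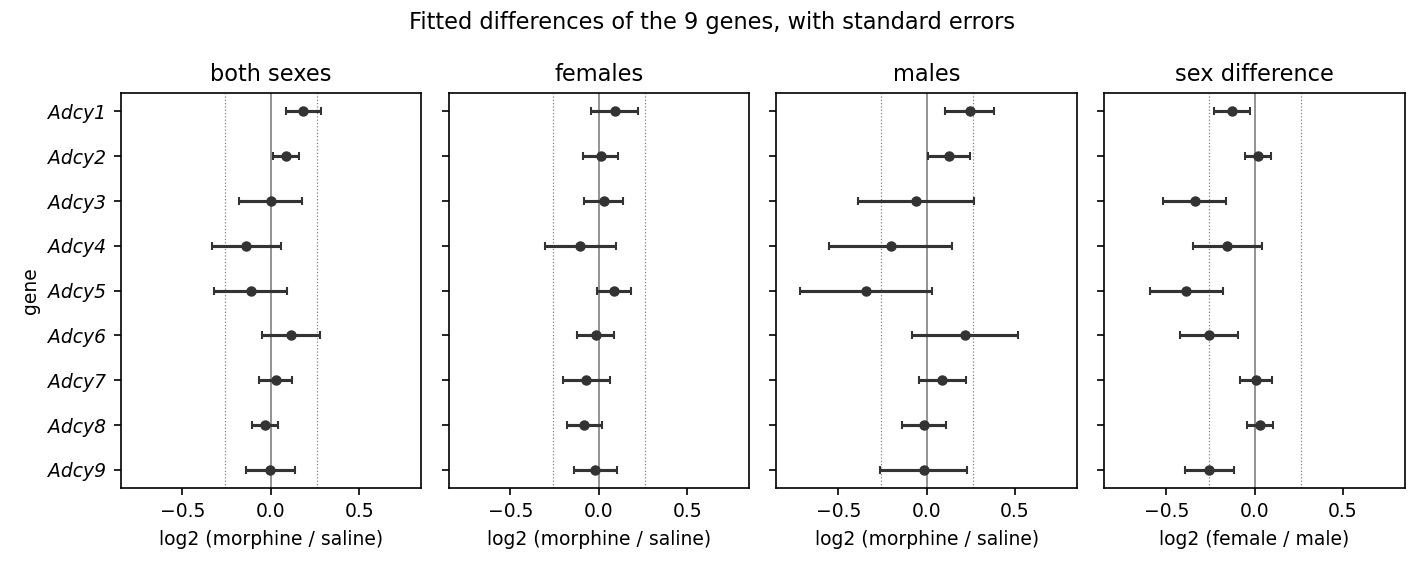
Fitted log2 differences of the 9 cyclase genes with SE bars, for morphine over saline in both sexes, in females, and in males, and for females over males. Dotted lines mark the threshold of 0.26 in each direction. Bars of *Adcy3*, *Adcy4*, *Adcy5*, and *Adcy6* are widest in males.

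In females, 0 of the 9 passed both thresholds, against 1.81% of all genes, and 0 passed on p alone, against 1.89%. There the treatments overlapped for each of the 9, where 5.65% of all genes did not overlap. The log2 fold changes lay between -0.10 for *Adcy4* (SE 0.20) and 0.09 for *Adcy1* (SE 0.13), with a median of -0.02 against -0.01 over all genes. *Adcy5* had the smallest unadjusted p, 0.384 in edgeR's quasi-likelihood test, with a log2 fold change of 0.09 (SE 0.10). Its females were closely grouped, from 54.3 to 67.9 CPM.

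In males, 0 of the 9 passed, against 2.99% of all genes. *Adcy1* stood at 191, 181, and 146 CPM in saline males 1, 2, and 3 and at 224, 201, and 191 CPM in morphine males 4, 5, and 6. It was the 1 member whose treatments did not overlap, which held for 9.08% of all genes, and the gap was from 191.0 to 191.4 CPM. Its log2 fold change was 0.24 (SE 0.14, unadjusted p = 0.125, adjusted p = 1.00). The exact permutation p was 0.1, the smallest that 3 mice against 3 allow. Scaling by total counts moved the median of all genes from -0.06 to 0.06. It put *Adcy1* at 0.37 with an unadjusted p of 0.0373, past both thresholds along with 4.44% of all genes. Measured from the median of all genes, *Adcy1* was 0.31 higher with either scaling.

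The 5 members that followed the principal component had wide errors in males. *Adcy6* stood at 40.9, 39.9, and 18.1 CPM in saline males 1, 2, and 3 and at 36.5, 36.1, and 42.6 CPM in morphine males 4, 5, and 6. Saline male 3 was thus the lowest male and the other saline males overlapped the morphine males. Its log2 fold change was 0.22 (SE 0.30), that of *Adcy5* was -0.34 (SE 0.37), that of *Adcy4* was -0.20 (SE 0.35), that of *Adcy3* was -0.06 (SE 0.33), and that of *Adcy9* was -0.02 (SE 0.25). *Adcy2* (0.13, SE 0.12), *Adcy7* (0.09, SE 0.13), and *Adcy8* (-0.01, SE 0.13) had narrower errors. Without the library labelled morphine male 6, 0 of the 9 passed, with *Adcy1* at 0.28, *Adcy5* at -0.48, and *Adcy6* at 0.13.

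Leaving out saline male 3 changed 2 calls in males. *Adcy5* then had a log2 fold change of -0.66 (SE 0.15, unadjusted p = 0.00152, adjusted p = 0.0256) and *Adcy4* of -0.48 (SE 0.20, unadjusted p = 0.0404). In that edgeR fit 28.6% of all genes passed both thresholds, and 11.5% had an adjusted p below 0.05. With offsets for GC content and transcript length, a fit added after the data were seen, *Adcy5* was at -0.02 (SE 0.06) with all 6 males and at -0.04 (SE 0.07) without saline male 3, and *Adcy4* passed in neither. Leaving out 1 mouse of a group of 3 leaves 2. Like the fit of all 6 males, these fits assume that saline and morphine males vary alike, here with only 2 saline males.

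With the same offsets, *Adcy6* passed both thresholds in males, with a log2 fold change of 0.34 (SE 0.10, unadjusted p = 0.0117, adjusted p = 0.463). It was then the 1 member of 9 that passed, against 6.74% of all genes. Without saline male 3 it was 0.25 (SE 0.07), under the fold-change threshold, and without each of the other males in turn it lay between 0.33 and 0.43 and passed. Without the offsets and without saline male 3 it was -0.04 (SE 0.12), so its direction depended on the fit.

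**Figure D5:**
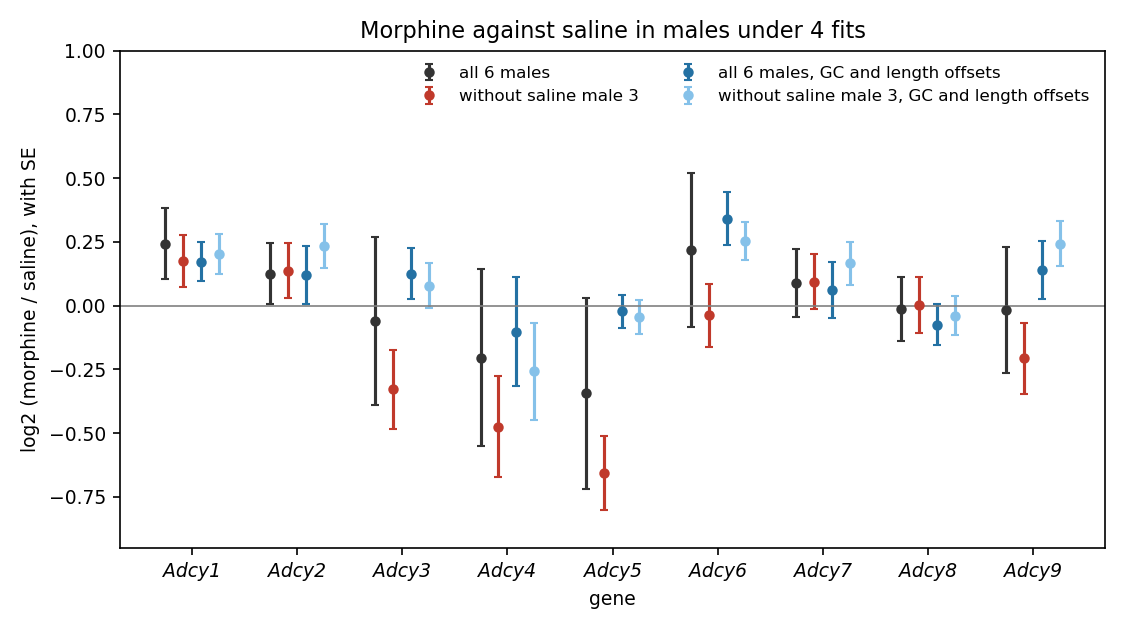
Log2 fold change of morphine over saline in males, with SE bars, for each cyclase gene in 4 fits with and without saline male 3 and with and without offsets for GC content and transcript length. *Adcy5* moves from -0.34 to -0.66 without saline male 3 and stands at -0.02 and -0.04 with the offsets, while *Adcy1*, *Adcy2*, *Adcy7*, and *Adcy8* move little.

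The interaction of treatment and sex, taken as the male change less the female change, passed for 0 of the 9 members in edgeR's test, against 2.94% of all genes with an unadjusted p under 0.05. It was largest for *Adcy5* at -0.41 (SE 0.41), from a change of -0.32 in males and 0.09 in females, with an unadjusted p of 0.333 in edgeR's test. *Adcy6* had 0.25 (SE 0.33) and *Adcy1* 0.17 (SE 0.20). Leaving out the library labelled morphine male 6 gave -0.54 for *Adcy5*, and again 0 of the 9 passed. Without saline male 3 the difference for *Adcy5* was -0.78 (unadjusted p = 0.000455, adjusted p = 0.0144 in edgeR's quasi-likelihood test), in a fit where 24.2% of all genes passed on the unadjusted p and 9.22% on the adjusted p. With the offsets for GC content and length it was 0.03 (SE 0.09) for *Adcy5*, and *Adcy6* had 0.42 (SE 0.14, unadjusted p = 0.0122, adjusted p = 0.748), where 6.19% of all genes had an unadjusted p under 0.05.

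Between the sexes, 0 of the 9 passed both thresholds, against 3.94% of all genes, and 0 passed on p alone, against 4.55%. None had an adjusted p below 0.05, where 0.0269% of all genes did. Levels of the sexes overlapped for each member, where 0.129% of all genes did not overlap. Log2 differences are females over males from the sex-combined fit. *Adcy5* was at -0.39 (SE 0.21, 63.2 CPM in females and 83.8 CPM in males), *Adcy3* at -0.34 (SE 0.18), *Adcy6* at -0.26 (SE 0.16), and *Adcy9* at -0.26 (SE 0.14). Their unadjusted p values lay between 0.0768 and 0.139 in edgeR's test. *Adcy2*, *Adcy7*, and *Adcy8* lay between 0.01 and 0.03. With the library labelled morphine male 6 left out, *Adcy5* was at -0.36 and *Adcy3* at -0.29, and 0 of the 9 passed. Without saline male 3, 5 of the 9 passed both thresholds (*Adcy3*, *Adcy4*, *Adcy5*, *Adcy6*, and *Adcy9*), all lower in females, with log2 differences from -0.55 to -0.31, and so did 20.9% of all genes. *Adcy3* and *Adcy6* then had an adjusted p of 0.0493 in edgeR's test, and 2.52% of all genes were below 0.05. These are the 5 members that followed the principal component, and saline males 1 and 2, at its other end, were then the only saline males.

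Few other genes of cAMP signalling passed. Of 75 listed genes for G proteins, calmodulin, opioid and Gs-coupled receptors, phosphodiesterases, protein kinase A and its partners, other cAMP effectors, and the CREB family, 73 were tested over both sexes, 1 passed higher and 1 lower, against 1.19% of all genes. *Vipr1*, a Gs-coupled receptor for vasoactive intestinal peptide, was higher at 0.858 ± 0.198 CPM in morphine mice than in saline mice, at 0.602 ± 0.166 CPM (SD, n = 6 each). Its log2 fold change was 0.51 (SE 0.22, unadjusted p = 0.0363, adjusted p = 1.00 in edgeR's test), the treatments overlapped, and it passed in 6 of 12 fits without 1 mouse. *Pde4c*, a cAMP phosphodiesterase, was lower at 0.432 ± 0.138 against 0.736 ± 0.335 CPM (SD, n = 6 each). The log2 fold change was -0.78 (SE 0.32, unadjusted p = 0.0322, adjusted p = 1.00 in edgeR's test), the treatments overlapped, and *Pde4c* passed in 5 of 12 such fits. In females *Pde4c* was the 1 gene of 73 that passed, against 1.81% of all genes, with a log2 fold change of -1.15 (SE 0.44, adjusted p = 1.00 in edgeR's test), and it passed in 1 of 6 fits without 1 mouse.

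In males the 1 gene of 73 that passed, against 2.99% of all genes, was *Gnas*, which encodes the Gs α subunit that turns cyclases on. It was at 61.3 ± 2.55 CPM in morphine males and 76.6 ± 8.55 CPM in saline males (SD, n = 3 each), and these did not overlap, as held for 9.08% of all genes. The log2 fold change was -0.33 (SE 0.14, unadjusted p = 0.047, adjusted p = 1.00 in edgeR's quasi-likelihood test), and it passed in 1 of 6 fits without 1 mouse. The *Gnas* locus makes several overlapping transcripts, and its count does not separate them. The interaction passed for 0 of the 74 genes tested, with 2.94% of all genes as background. The 5 inhibitory G α genes and the 4 opioid receptor genes each had 0 that passed over both sexes, in females, in males, or for the interaction. Their median log2 fold changes were -0.09 and 0.02 over both sexes, against -0.02 over all genes. All 5 inhibitory G α genes were lower over both sexes and in males, where their median was -0.15 against -0.06 over all genes. In females 3 of them were higher and 2 lower. The soluble cyclase *Adcy10*, which G proteins do not regulate, was near the limit of detection, with 0 to 16 counts per library. Its log2 fold change over both sexes was 0.93 (SE 0.50, unadjusted p = 0.0839, adjusted p = 0.9999 in edgeR's test). The treatments overlapped, and the exact permutation p, not adjusted, was 0.0476. *Adcy10* passed in 2 of 12 fits without 1 mouse and in 2 of 9 alternatives that kept every mouse.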

How the data were processed

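The authors used Trimmomatic for trimming, STAR for alignment to mm10, and featureCounts for counting over the exons of an Ensembl annotation. The deposited counts are whole numbers per gene with totals that differ between libraries, so they were taken as raw counts. Poly-A RNA had been sequenced as 100 bp single-end reads, with 12 libraries on 1 lane.

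Tests used edgeR 4.0.16 in R 4.3.3 (quasi-likelihood, TMM, filterByExpr). Sex was a covariate over both sexes, each sex was fitted alone, and the interaction and the sex difference were fitted over 12 mice. The study also names dam as a covariate, which could not be used. P values were adjusted by Benjamini-Hochberg over all genes tested. They measure spread between single mice, 1 library each. Levels are CPM with TMM factors over 12 libraries, per kb of union exon length (GENCODE M21, GRCm38) where genes are compared, and logs used a prior count of 2. Correlations used 100000 resamples. Alternatives were exactTest and DESeq2 1.42.0, other scalings and filters, the replicate number as a block, each mouse left out, and, added after the data were seen, loess offsets (span 0.5) for GC content and length and 1 surrogate variable (sva 3.50.0). Fits were tested on simulated data.

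Members and lists were chosen with earlier results of these data known. Named were all members, listed pathway genes past both thresholds, *Adcy10*, the 3 genes most correlated with each of the 3 most abundant members, and check genes. Promoter sequences are from RefSeq.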

Additional observations from a re-analysis of the deposited data

Results flagged for a closer look

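In groups of 6 mice, 3 values stood apart from the rest of their group by Dixon's criterion, which uses the gap to the nearest mouse as a share of the group's range and has a critical value of 0.625. The shares were taken on log2 levels, and levels in CPM give other shares. *Adcy1* in morphine female 3 was low among the 6 morphine mice (gap 0.664 of the range). *Adcy5* in the library labelled morphine male 6, whose sex genes did not match its label, was high among the 6 morphine mice (0.629). *Adcy6* in saline male 3 was low among the 6 males (0.807). Chance gives about 1 such value in 20 groups, and 36 groups were examined, 4 overlapping groups for each of the 9 genes.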

How the results depend on the processing

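Over both sexes and in females, 0 of 9 members passed under every alternative run. In males the number was 1 with scaling by total counts (*Adcy1*), 1 with loess offsets for GC content and length (*Adcy6*), and 0 to 2 without 1 mouse. For the interaction it was 1 with the offsets (*Adcy6*) and 0 to 1 without 1 mouse, and for the sex difference 0 to 5 without 1 mouse. The highest values without offsets came without saline male 3. The difference between *Adcy8* and *Adcy9* in log2 level changed direction without 1 mouse, from -0.018 to 0.064. The cause of these changes was not tested. All 4 groups share replicate numbers across treatments. With the replicate number as a block, beside sex, 0 members passed. Mice of the same number are of opposite sex, their deviations from the group means correlated at -0.36 to 0.18, 1 of 6 pairs was over 0.1, and 0 of 6 saline mice correlated best with the mouse of their own number, so the numbers were not taken as pairs. Over all genes, the number past the thresholds ranged over alternatives that kept every mouse from 154 to 754 over both sexes (main 221), 218 to 1094 in females (328), 462 to 1225 in males (543), and 413 to 1665 for the interaction (559). Without 1 mouse these ranges were 177 to 458, 208 to 1482, 253 to 5341, and 290 to 4705, and 330 to 3947 for the sex difference (733). *Adcy4*, with 62 to 208 counts, and *Adcy10*, with 0 to 16, were limited by depth. So were *Vipr1* and *Pde4c*, whose means of 0.858 and 0.432 CPM in morphine mice lay below that of *Adcy4* (3.045 CPM).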
